A study of Mus musculus with 4 samples.

Results

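The sites described here are stretches of messenger RNA genes at which RNA was enriched with Flag-tagged Lin28b whether or not the protein carried a mutation that impairs RNA binding. A site is a peak of the wild-type list that overlapped a peak of the mutant list by at least 1 base on the same strand and whose summit lay inside a protein-coding gene of that strand. The sites were thus chosen by the authors' peak calls in both IP libraries, the calls that also gave the folds compared below. Of 11912 wild-type peaks, 5911 were shared with the mutant list, and 5769 of these met the rule, the other 142 having their summit outside such genes. They made up 50.5% of the 11427 wild-type peaks in coding genes (95% exact binomial interval 49.6% to 51.4%, counting error only) and lay in 1598 genes, 13.6% of the 11748 coding genes measured. The interval takes peaks as independent, although many lay in the same genes, and it holds no spread between libraries. The mutant list was longer, with 15931 peaks, 15190 of them in coding genes.

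RNA immunoprecipitation followed by sequencing was carried out on the mouse line 15376CAFs, which the labels describe as cancer-associated fibroblasts of the pancreas. The cells overexpressed Flag-tagged Lin28b, either an RNA-binding deficient mutant or the wild-type protein, and the recovered RNA came down with an antibody against the Flag tag. There were 4 libraries, the mutant IP, the mutant input, the wild-type IP and the wild-type input, each a group of 1. No value below therefore has a replicate check, no test was made, and each comparison describes single libraries whose sequencing depth is unknown. All 4 libraries share the cell line and a Flag-tagged Lin28b, both IPs share the antibody, and cells without a Flag-tagged protein were not analysed here.

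The labelled cell type was set against its markers in both inputs. Of 11 fibroblast markers 6 were listed in both gene tables, and Col1a2, Col3a1, Pdgfrb, Dcn and Lum, which define fibroblasts, were the other 5. Of the listed ones Sparc, a matrix glycoprotein, was at 83.8 and 93.8 FPKM and fibronectin, Fn1, at 74.6 and 117.5 FPKM in the mutant and the wild-type input. Col1a1, the main collagen I chain, was at 0.404 FPKM (a level per gene length and library size, the unit the values were read as) in the mutant input and 0.722 FPKM in the wild-type input. Pdgfra was also low, at 0.860 and 1.33 FPKM, and so was Acta2, at 0.524 and 0.227 FPKM, mutant input before wild-type input. Of 6 epithelial markers 5 were listed in both, with the keratin Krt8 at 494 and 601 FPKM and the epithelial cadherin Cdh1 at 114 and 219 FPKM in the mutant and the wild-type input. Among these markers the mucin gene Muc1 was the most unequal between the inputs, with 6.77 FPKM in the mutant and 134 FPKM in the wild-type input. The mesenchymal filament gene Vim was high, at 547 and 607 FPKM in the same order of inputs. In such bulk RNA, fewer cells of a type and less RNA per cell cannot be told apart. The label is kept below as a name only. Levels of the mutant and wild-type tables were normalised separately by the authors, which limits every level set across constructs. Lin28b itself had no shared site, and its level was 36.7 FPKM in the mutant IP and 30.01 FPKM in the mutant input, against 8.99 FPKM in the wild-type IP and 13.8 FPKM in the wild-type input.

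Lin28b is an RNA-binding protein of embryonic cells and of several tumours. It holds a cold-shock domain and a pair of zinc knuckles, and it is best known for binding the loop of let-7 microRNA precursors at a GGAG element and blocking their maturation. It also binds many messenger RNAs, in human and mouse cells, often in purine-rich stretches that contain GGAG.

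RefSeq sequence for build GRCm38.p6 covered only a few of the sites, because the tables at hand hold stretches around gene starts and microRNA hairpins. These windows run from 250 bases before to 50 bases after a gene start. Of the 5769 sites, 37 overlapped a window on the same strand, 35 of them that of their own gene. In 9 sites the summit itself fell in a window, and for 6 of these the 30 bases around the wild-type summit were read in full. All 6 are shown, with the motif GGAG in capitals where it occurred on the transcribed strand. Sites of a chromosome left out of this step are not among them, so other summits may have been readable.
Ankrd28 (chr14:31830512-31830541, −): agagcgagagaaaggacggaagaaagaggg
Cnot2 (chr10:116527963-116527992, −): cttccaaaatactactcttgataaaagtaa
Cp (chr3:19957197-19957226, +): tgtcagccaagcaaatgaagccctatttat
Naa15 (chr3:51416161-51416190, +): gagtgtcaggacagggcgggcgcggcgacc
Ubr4 (chr4:139380661-139380690, +): agGGAGccgcagtagtacgacgaaagatgg
Yars (chr4:129189898-129189927, +): agctcagctgatgcaacccgacgggactag
The Naa15 stretch was read from the window of the neighbouring entry LOC108168868. GGAG occurred in 1 of the 6 stretches, that of Ubr4, and in 22.3% of the last 30 bases of all 32851 RefSeq windows. The summits of Ankrd28, Cnot2, Cp and Naa15 lay before the RefSeq start of their window. The last 30 bases lie after it, so the regions compared are unlike. Ankrd28 is rich in purines around its summit without holding the motif. The Ankrd28 site had a fold of 10.2 in the mutant list and 8.64 in the wild-type list, the Cp site 12.4 and 11.97, and the Ubr4 site 12.1 and 8.86. The Cnot2 site had 4.50 and 7.64, the Naa15 site 23.1 and 6.93, and the Yars site 14.4 and 6.47, mutant before wild type in each. The folds of the 5 stretches without GGAG lay on both sides of those of the Ubr4 site in each list.

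Shared sites also held annotated microRNA hairpins. Of 1005 RefSeq hairpins 6 overlapped a site on the same strand and 5 lay wholly inside it, none of them a let-7 hairpin. A pair is shown, from Syne2, whose transcript was recovered more strongly with the mutant, and from Ddx5, an RNA helicase gene with sites slightly stronger in the wild-type list.
Mir5101 in Syne2 (chr12:75909103-75909185, +): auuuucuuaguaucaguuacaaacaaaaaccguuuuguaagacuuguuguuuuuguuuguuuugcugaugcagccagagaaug
Mir3064 in Ddx5 (chr11:106782693-106782759, −): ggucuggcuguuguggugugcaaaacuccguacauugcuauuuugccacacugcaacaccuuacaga
mmu-miR-5101: uUUGUUUGuuuugcugaugcag
mmu-miR-3064-3p: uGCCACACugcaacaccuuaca
mmu-miR-3064-5p: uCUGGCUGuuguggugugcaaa
Capitals in the mature microRNAs mark the seed, bases 2 to 8, and the 3 seeds differ. GGAG is absent from the pair shown and occurs in 1 of the 6 hairpins, Mir1902 in the kinase gene Hipk3, and in 44.5% of all 1005. The Syne2 site around Mir5101 had a fold of 10.2 in the mutant list and 6.27 in the wild-type list, and the Ddx5 site around Mir3064 had 3.89 and 4.62. Whether the reads at these sites came from the hairpins or from the host transcripts was not tested.

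Most shared sites had similar folds in both lists. Each fold is the authors' enrichment value at the summit of a peak. The peaks were called, and so chosen, on the same signal, and all counts of unequal sites are therefore a description. The mutant fold had a median of 4.28, with quartiles at 2.85 and 6.62 and a range of 1.10 to 341. The wild-type fold had a median of 3.70, with quartiles at 2.63 and 5.69 and a range of 1.15 to 270.2. At 4752 sites (82.4%) the folds lay within 2-fold of each other, and at 3415 (59.2%) within 1.5-fold. The mutant fold was the higher at 3374 sites and the wild-type fold at 2395. Across the 5769 sites the log2 folds correlated with Pearson's r = 0.633 and Spearman's rho = 0.608, across points that share cells, gene and peak caller. Of the 100 strongest sites of each list 32 were the same.

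At 699 sites in 236 genes (12.1% of the sites) the mutant fold was at least 2-fold above the wild-type fold, and the same held for 11.9% of all shared peaks of any class. At 318 sites in 268 genes (5.51%) the wild-type fold was at least 2-fold above the mutant fold, against 5.53% of all shared peaks. The sites are nearly all of the shared peaks, so these shares had to be close. The log2 of the mutant over the wild-type fold had a median of 0.14 over all shared peaks and of 0.14 over the sites, with a standard deviation over sites of 0.73. The mutant excess depended on this offset, and with each ratio divided by its median over all shared peaks the mutant fold was the higher at 2894 sites and the wild-type fold at 2874. On that scale 537 sites were 2-fold stronger in the mutant list and 452 in the wild-type list, so the mutant share of unequal sites was 54.3% rather than 68.7%. With the mutant folds set to the wild-type folds of equal rank the counts were 494 and 439, a mutant share of 52.9%. At 4-fold, 35 sites in 26 genes were stronger in the mutant list and 22 sites in 21 genes in the wild-type list.

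**Figure D1:**
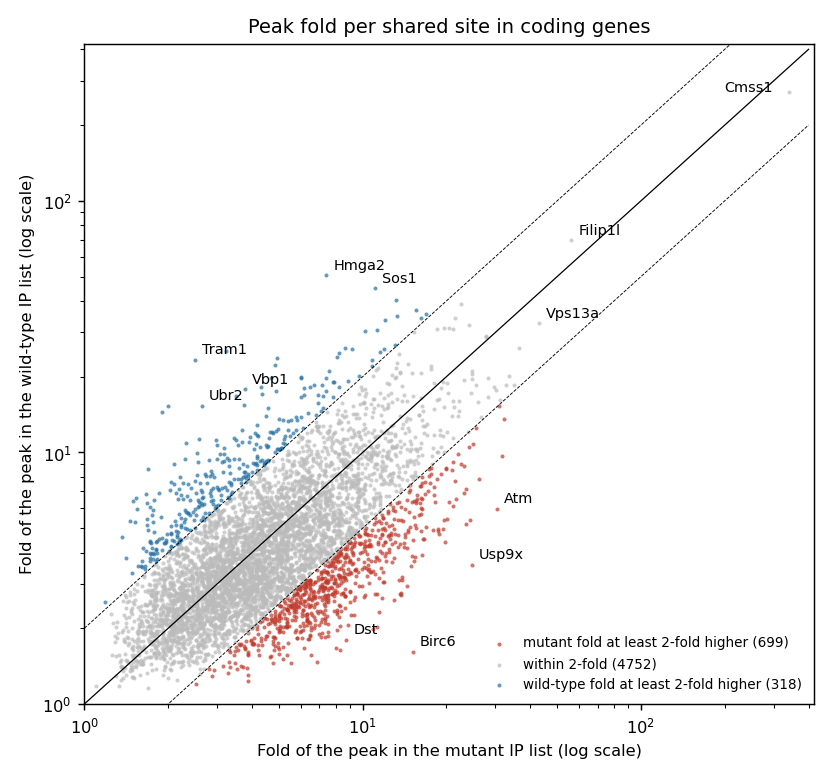
Peak fold in the mutant IP list (horizontal, log scale) against the fold in the wild-type IP list (vertical, log scale) for the 5769 shared sites, 1 point a site, with the line of equality and dashed lines at 2-fold. Most points (4752) lie between the dashed lines, 699 lie below them on the mutant side and 318 above them on the wild-type side, and Cmss1 stands alone at 341 in the mutant and 270.2 in the wild-type list.

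The paired peaks usually marked the same point. Their summits lay a median of 8 bases apart, at most 10 bases apart at 54.0% of the sites and at most 50 bases apart at 72.9%, and in 642 sites they fell on the same base. At 299 sites the summits lay more than 1000 bases apart, inside broad peaks. The mutant peaks were wider, with a median of 329 bases against 279 bases in the wild-type list, and 54.7% of the wild-type peaks lay wholly inside their mutant partner. Peaks of only 1 list were narrower, with a median of 237 bases both for the 9565 mutant-only and for the 5658 wild-type-only peaks in coding genes. The median −log10 q of the authors' caller was 35.0 in the mutant and 24.1 in the wild-type list at shared sites, against 24.1 at mutant-only and 20.0 at wild-type-only peaks. The median fold was 4.18 at mutant-only and 3.77 at wild-type-only peaks, close to the medians of the shared sites in the same list. Since 217 sites overlapped more than 1 mutant peak and 273 mutant peaks were partners of more than 1 site, the 5769 sites rest on 5379 mutant peaks. The mutant peak of largest overlap was used throughout.

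The rule's overlap limit cut through few peaks. The sites with the shortest overlap were in Tbc1d23, with 4 shared bases and folds of 3.43 in the mutant and 2.83 in the wild-type list, and in Fchsd2, with 5 shared bases and folds of 2.07 and 3.94. Just outside, a wild-type peak in Zfp942 missed a mutant peak by 47 bases, with folds of 4.17 in the mutant and 7.55 in the wild-type list. In Lcorl the gap was 88 bases and the folds were 3.12 and 3.88. Only 9 sites overlapped by fewer than 50 bases, and 1 wild-type-only peak lay within 50 bases of a mutant peak.

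The 10 genes with the sites most in favour of the mutant held between 3 and 49 shared sites each. The most unequal site was in Birc6, a giant ubiquitin-conjugating enzyme that restrains apoptosis, at chr17:74609021-74609220 (GRCm38, plus strand). Its fold was 15.1 in the mutant list and 1.62 in the wild-type list, 9.34-fold higher in the mutant. Next came Usp9x, an X-linked deubiquitinase, with 24.7 in the mutant and 3.58 in the wild-type list (6.89-fold). Ect2, a guanine nucleotide exchange factor needed for cytokinesis, had 11.3 and 2.02 (5.58-fold), and Syne2, which encodes the nuclear envelope linker nesprin-2, had 10.9 and 1.99 (5.48-fold). In all 4 the mutant fold was above the upper quartile of its list and the wild-type fold below the median of its own.

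Atm, the kinase that responds to DNA double-strand breaks, had 30.4 in the mutant and 5.98 in the wild-type list (5.09-fold), and here both folds were above their list's upper quartile. The kinase gene Pdik1l had 13.8 and 2.71 (5.09-fold), Spag9, a scaffold of JNK signalling, 8.32 and 1.65 (5.05-fold), and Washc4, a subunit of the WASH complex on endosomes, 12.98 and 2.58 (5.03-fold). Ubr4, a ubiquitin ligase of the N-degron pathway, had 11.4 and 2.31 (4.93-fold), and the plakin Dst, which links cytoskeletal filaments, 8.75 and 1.80 (4.85-fold). The wild-type peaks of the Pdik1l, Spag9, Washc4 and Dst sites had a low −log10 q, at 8.53, 4.78, 7.88 and 6.65. That of the Birc6 site, the most unequal of all, was lower still, at 2.999. In Pdik1l a single broad mutant peak of 4245 bases was the partner of all 3 wild-type peaks, so its 3 sites share 1 mutant fold, and in Spag9 all 3 sites likewise had the mutant fold of 8.32.

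Not every gene in this group favoured the mutant along its length. All 17 Atm sites, all 23 Syne2 sites, all 38 Usp9x sites and all 10 Ubr4 sites had the higher fold in the mutant list. In Ect2, by contrast, 6 of 11 sites were higher in the mutant list, and the median log2 ratio was 0.11, so the named Ect2 site was the exception in its gene. Washc4 had 5 of 12 sites higher in the mutant list and a median of −0.12. Of its sites 1 was 2-fold stronger in the mutant list and 1 in the wild-type list.

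The sites most in favour of the wild type lay in genes with few sites, since 8 of the 10 genes named had 1 or 2. Of these 10 sites 6 lay in the last 10% of the gene span, as did 37.9% of all shared sites. The most unequal was in Tram1, which encodes a protein at the translocation channel of the endoplasmic reticulum, at chr1:13564863-13566560 (GRCm38, minus strand), 96.1% along the gene. Its fold was 2.50 in the mutant and 23.4 in the wild-type list, 9.33-fold higher in the wild type, and the other Tram1 site had 4.28 and 10.5. The whole-gene level moved the same way, with 37.6 FPKM in the mutant IP and 49.8 FPKM in the mutant input, against 91.2 FPKM in the wild-type IP and 31.3 FPKM in the wild-type input.

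Hmga2, a chromatin protein of embryonic cells and a well-known let-7 target, had both its sites on the wild-type side. The site at chr10:120361268-120364484 (minus strand), 98.5% along the gene, had a fold of 1.90 in the mutant and 14.5 in the wild-type list, 7.66-fold higher in the wild type. The mutant peak of this site had a low −log10 q, 5.73. The site at chr10:120462675-120462907, 13.7 kb from the gene start, had 7.38 and 50.8 (6.88-fold), and among the shared sites only those of Cmss1 and Filip1l had higher wild-type folds. Hmga2 was at 23.7 FPKM in the mutant IP and 14.6 FPKM in the mutant input, against 371 FPKM in the wild-type IP and 39.5 FPKM in the wild-type input. The wild-type input thus also held more Hmga2 RNA, and the part of that in the peaks was not tested.

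Esco2, an acetyltransferase of cohesin, and Chsy1, a chondroitin sulfate synthase, followed in the ranking, but their ratios depended on which mutant peak was paired. Esco2 had 3.23 in the mutant and 25.2 in the wild-type list (7.81-fold higher in the wild type), a log2 ratio of −2.96 that became −1.30 with the mutant peak of nearest summit. Chsy1 had 1.999 and 15.3 (7.67-fold), a log2 ratio of −2.94 that became −1.01 with that pairing. Both stayed at least 2-fold stronger in the wild-type list. The mutant peak paired with the Esco2 site had a low −log10 q, 6.82.

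The other named sites on the wild-type side were paired with a single mutant peak, apart from Vbp1. Ubr2, a ubiquitin ligase of the N-degron pathway, had 2.64 in the mutant and 15.3 in the wild-type list (5.798-fold). Cggbp1, which binds CGG repeats, had 1.69 and 8.57 (5.07-fold), and Tasor, a subunit of the HUSH silencing complex, had 4.91 and 23.8 (4.84-fold). Sec63, a partner of the translocation channel, had 3.52 and 16.7 (4.75-fold), with summits 1 base apart. Vbp1, a prefoldin subunit, had 3.77 and 17.8 (4.74-fold), and Stam, which sorts ubiquitinated cargo at endosomes, had 2.32 and 10.9 (4.72-fold). All 6 wild-type folds were above the upper quartile of their list and 5 of the 6 mutant folds were below the mutant median. The mutant peaks of the Ubr2, Cggbp1 and Stam sites had a low −log10 q, at 7.62, 2.54 and 6.73.

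Ubr2 and Tasor showed the same unevenness as Ect2. In Ubr2 only 1 of 6 sites was 2-fold stronger in the wild-type list, and the median log2 ratio of the gene was −0.18. In Tasor 4 of 13 sites were, and the median was −0.44. Vbp1 was the reverse case, with 1 shared site but a whole-gene level of 25.3 FPKM in the mutant IP and 18.3 FPKM in the mutant input, against 155 FPKM in the wild-type IP and 14.5 FPKM in the wild-type input.

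The strongest sites of all were strong in both lists. A site in Cmss1 at chr16:57391113-57391775 (minus strand) had a fold of 341 in the mutant and 270.2 in the wild-type list, with the summits on the same base. On the plus strand of the same stretch, Filip1l, which encodes a relative of a filamin-binding protein, had 56.2 and 69.7. It was the only place where shared sites of coding genes lay opposite each other on both strands. Among the other strongest mutant sites were Vps13a, a bridge-like lipid transfer protein, with 43.1 in the mutant and 32.7 in the wild-type list, and Nipbl, the cohesin loader, with 36.5 and 26.1. Pds5a, a cohesin regulator, had 35.1 and 18.6, Dmxl1, a partner of the vacuolar proton pump, 32.8 and 18.5, and Dock11, an exchange factor for Cdc42, 31.2 and 16.2. These sites were within 2-fold, although the mutant fold was the higher in each apart from Filip1l.

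Of the 10 genes with the strongest mutant sites, predicted genes aside, 3 had a site with folds more than 2-fold apart. They were the Atm site, a site of the helicase gene Ascc3 with 32.3 in the mutant and 13.6 in the wild-type list, and a site of Ranbp2, the large nuclear pore protein of the cytoplasmic side, with 31.7 and 9.71. Of the 10 genes with the strongest wild-type sites, 6 had folds more than 2-fold apart. Sos1, the Ras exchange factor, had 11.1 in the mutant and 44.9 in the wild-type list, a second Tasor site 13.2 and 40.5, and Vps54, of the GARP tethering complex, 15.6 and 36.9. Pik3c2a, a class II phosphoinositide kinase, had 16.8 and 35.5, and Picalm, which helps assemble clathrin coats, 13.3 and 34.7, with Hmga2 as the other. Tm9sf3 with 22.6 and 39.0 and the inositol pyrophosphate kinase gene Ppip5k2 with 21.4 and 34.4 stayed within 2-fold. Since these sites were ranked by the fold of 1 list, the side they favour is a description of that ranking.

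Sites were gathered in a limited set of genes. Of the 1598 genes 644 had 1 site, 599 had 2 to 4, 241 had 5 to 9, 84 had 10 to 19 and 30 had 20 or more. The 114 genes with at least 10 sites held 1976 sites, 34.3% of all. Birc6 and Vps13a had 49 sites each, the spectraplakin Macf1 had 44, the deubiquitinase Usp34 had 41 and Usp9x had 38. Many of the same genes also carried unshared peaks, since 950 (59.4%) had a mutant-only peak as well and 813 (50.9%) a wild-type-only peak. Syne1, which encodes nesprin-1, had 18 shared sites among 135 mutant peaks, and Birc6 had 49 among 69.

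The genes with most sites had higher mutant folds relative to wild type than genes with a single site. Among the 30 genes with 20 or more sites, 32.2% of 856 sites were 2-fold stronger in the mutant list and 0.701% in the wild-type list, with a median log2 ratio of 0.66. Among the 644 genes with a single site the shares were 2.80% and 13.4%, and the median was −0.19. With the mutant folds set to the wild-type folds of equal rank the medians were 0.49 and −0.30. Genes with 2 to 4 sites stood at 5.68% and 7.65%, those with 5 to 9 at 9.36% and 4.65%, and those with 10 to 19 at 15.2% and 2.77%. Outside the genes with 20 or more sites, 423 sites were 2-fold stronger in the mutant and 312 in the wild-type list.

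Most genes with many sites held both directions. Among the 355 genes with at least 5 sites the median standard deviation of the log2 ratio within a gene was 0.47, against 0.73 over all sites. The sets are unlike, since all sites include those of genes with fewer sites. Sites on the same mutant peak also share its fold. All sites were higher in the mutant list in 59 of the 355 genes and higher in the wild-type list in 16. With the ratios divided by the median of all shared peaks the counts were 33 and 28. With the folds as deposited, the other 280 genes had sites higher in each list. The highest medians belonged to Dst (19 sites, log2 ratio 1.39), Syne2 (23 sites, 1.37), the transcription factor Sp1 (5 sites, 1.33), the giant scaffold Ahnak (6 sites, 1.31) and Lyst, which shapes lysosomes (8 sites, 1.27). The 6 Ahnak sites hold only 2 mutant folds, 5.66 and 6.46, from broad mutant peaks, so they are not separate measurements on the mutant side. Dync1h1, the dynein heavy chain, had all 8 sites 2-fold stronger in the mutant list, with a median of 1.26.

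On the other side the lowest medians were those of Kitl, the ligand of the receptor Kit (5 sites, −1.09), the polycomb gene Pcgf5 (5 sites, −0.92), Vps54 (9 sites, −0.89), Abce1, a ribosome recycling factor (5 sites, −0.88), and Cct8, a subunit of the cytosolic chaperonin (5 sites, −0.85). Matr3, a nuclear matrix RNA-binding protein, had 7 sites and a median of −0.85. Otud4, a deubiquitinase, had 8 sites, all higher in the wild-type list, and a median of −0.84. The strongest Otud4 site had 16.3 in the mutant and 34.2 in the wild-type list, and its weakest had 2.36 and 3.57. With the folds as deposited, the largest medians on the wild-type side were smaller in size than those on the mutant side. That difference includes the offset of 0.14 toward the mutant over all shared peaks.

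Neighbouring sites could still differ. In Syne2 the first site, 91.0 kb from the gene start, had 10.2 in the mutant and 6.27 in the wild-type list, and the site 127 kb from the start had 10.9 and 1.99. The site at 186 kb had 18.5 and 7.85, and the last, at 293 kb, had 7.496 and 5.20. The mutant fold was higher at each, by between 1.25-fold and 5.48-fold over the 23 sites. In Vps13a the site 21.2 kb from the start had 12.8 in the mutant and 15.9 in the wild-type list, the one at 79.6 kb 43.1 and 32.7, and the one at 164 kb 8.98 and 2.54, so the order turned within the gene. In 25 genes at least 1 site was 2-fold stronger in each list. Nbeal1 had 6 sites 2-fold stronger in the mutant and 1 in the wild-type list among 26, Vps13b 10 and 1 among 28, and Atp13a3, a polyamine transporter, 1 and 1 among 24.

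**Figure D2:**
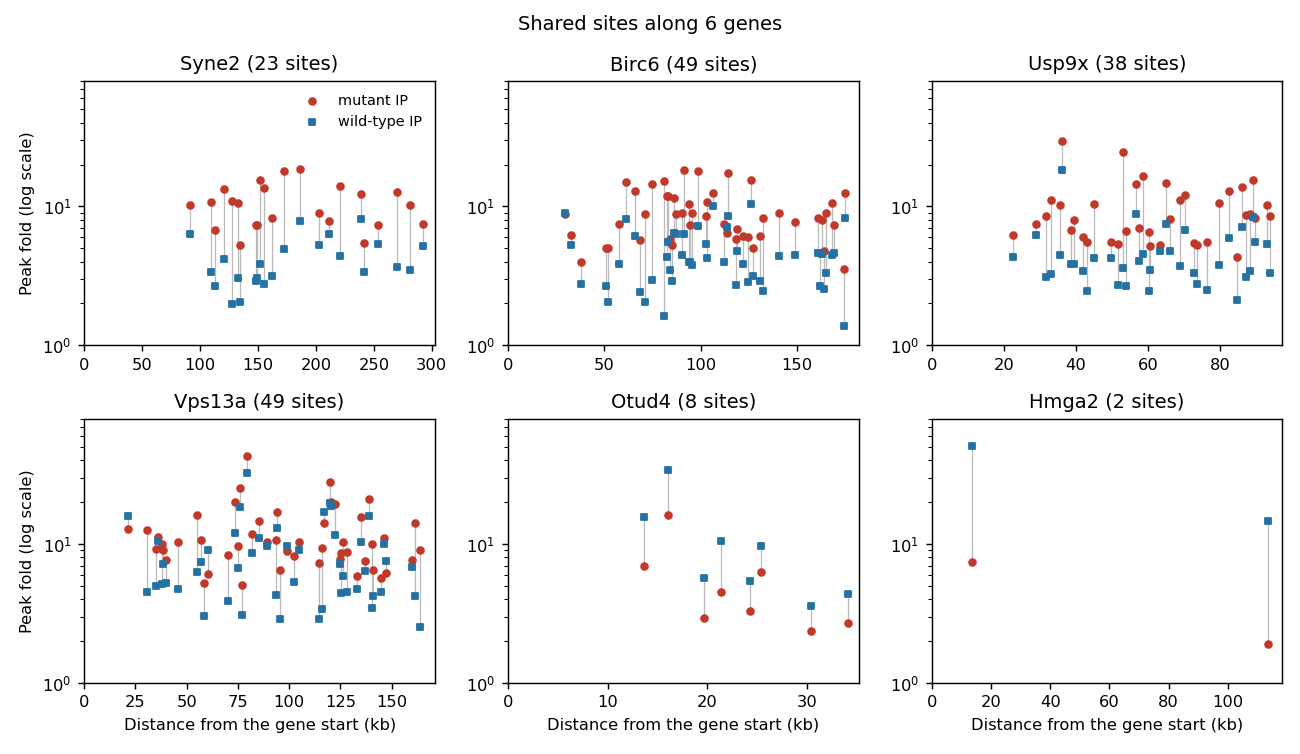
Peak fold (vertical, log scale) of each shared site against its distance from the gene start in kb (horizontal) in 6 genes, with mutant IP folds as circles, wild-type IP folds as squares and a line joining the pair. Circles lie above squares at all 23 Syne2 sites and all 38 Usp9x sites, squares lie above circles at all 8 Otud4 and both Hmga2 sites, and the order changes along Birc6 and Vps13a.

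Gene groups were compared by lists of genes of known function, 27 lists in all with 796 of 868 genes measured. Of all measured coding genes 13.6% had a shared site, and most lists lay above that share. The giant cytoskeletal linker genes, whose proteins tie filaments to membranes and the nucleus, stood farthest to the mutant side. Of 28 measured linker genes 17 had 171 sites, 163 of them higher in the mutant list (159 with ratios divided by the median of all shared peaks), with a median log2 ratio of 1.16 against 0.14 over all sites. At 2-fold, 104 of these sites (60.8%) favoured the mutant and 1 (0.585%) the wild type, where 12.1% and 5.51% of all sites did. The shares were 32.2% and 0.701% in all genes with 20 or more sites. In the fifth of sites with the longest genes they were 26.4% and 2.26%. List, gene span and number of sites were not told apart, here and in the lists below. Macf1 had 33 of 44 sites, Dst 16 of 19, Syne2 16 of 23, Syne1 12 of 18 and the dystrophin relative Utrn 8 of 12. The junction protein Tjp1 (10 sites, median −0.04) and vinculin, Vcl (2 sites, −0.35), did not share this direction. The strongest Syne1 site had 21.9 in the mutant and 9.90 in the wild-type list, the Macf1 site with the highest mutant fold 19.1 and 8.23, and the one with the highest wild-type fold 18.7 and 10.1.

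Among lists with at least 9 sites, DNA damage kinase and repair genes came next, with 19 of 31 measured genes holding 204 sites and a median of 0.75. Of these sites 64 (31.4%) favoured the mutant at 2-fold and 2 (0.98%) the wild type, where 12.1% and 5.51% of all sites did. Beside Atm (median 1.07), the kinases Smg1, of nonsense-mediated decay, with 37 sites (0.84), Atr, of stalled replication forks, with 15 (0.63), and Prkdc, of end joining, with 21 (0.47) were on the mutant side. The strongest Atr site had 28.3 in the mutant and 16.6 in the wild-type list, and the Prkdc site with the highest mutant fold had 25.5 and 12.5. The transcription cofactor Trrap, a relative of these kinases, had 18 sites and a median of 0.80, and Rif1 (15 sites, 0.29) lay closer to the median of all sites.

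Ubiquitin ligase and protease genes had the largest share of genes with a site among the lists, 35 of 43 measured (81.4%). The share over all measured coding genes was 13.6%. The 411 sites of this list had a median of 0.67. Of these 132 (32.1%) favoured the mutant at 2-fold and 9 (2.19%) the wild type, where 12.1% and 5.51% of all sites did. The group was mixed: the ligases Huwe1 (30 sites, 1.16) and Herc2 (16 sites, 1.24) lay far on the mutant side, Usp34 (41 sites, 0.35) nearer the middle, and Otud4 and the scaffold Cul3 (3 sites, −1.05) on the wild-type side. Ube2d3, a conjugating enzyme, had 1 site with a log2 ratio of −1.04. Lipid-transfer and membrane trafficking genes had 22 of 37 measured genes with 227 sites and a median of 0.65. Of these sites 73 (32.2%) favoured the mutant at 2-fold and 7 (3.08%) the wild type, beside the same 12.1% and 5.51% of all sites. Here Vps13d (9 sites, 1.22), Lyst and Vps13b (28 sites, 0.80) contrasted with the COPII coat gene Sec24a (3 sites, −1.27) and the COPI gene Copb2 (3 sites, −0.45).

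Lists on the wild-type side held fewer sites. Genes of hnRNP, SR and FET RNA-binding proteins had 15 of 45 measured genes with 34 sites and a median of −0.38. At 2-fold, 1 site (2.94%) was stronger in the mutant and 4 (11.8%) in the wild-type list, where 12.1% and 5.51% of all sites were. Tra2b, a splicing factor, had 4.78 in the mutant and 11.9 in the wild-type list, the strongest Matr3 site 5.49 and 11.6, and that of Hnrnpk 4.84 and 5.60. Abundant actin and actin-binding genes had 6 of 28 with 16 sites and a median of −0.38. Of these sites 0 were 2-fold stronger in the mutant and 3 (18.8%) in the wild-type list, beside the same shares of all sites. DEAD and DEAH box helicases, which remodel RNA, had 10 of 32 with 49 sites and a median of −0.23. Their counts were 0 and 2 (4.08%), so the wild-type share was below the 5.51% of all sites. Dhx15 (10 sites, −0.61) was lowest among those with many sites, while Dhx36 (8 sites, −0.07), which unwinds G-quadruplexes, had a strong site near its start with 30.2 in the mutant and 17.8 in the wild-type list.

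Known Lin28 and let-7 targets had medians near 0, below the 0.14 of all sites. Of 26 measured reported LIN28 mRNA targets 10 had 26 sites, with a median of −0.07 and counts of 0 for the mutant and 4 (15.4%) for the wild type at 2-fold, where 12.1% and 5.51% of all sites were called. The 4 were both Hmga2 sites, the Ccna2 site (cyclin A2, log2 ratio −1.88) and the Hnrnpf site (−1.10). Igf2bp3, an oncofetal RNA-binding protein, had 1 site with 1.75 in the mutant and 1.78 in the wild-type list, and Top2a, the mitotic topoisomerase, had 8 sites and a median of −0.15. Of 35 measured textbook let-7 targets 11 had 33 sites, with a median of 0.01 and counts of 3 (9.09%) and 2 (6.06%). The 3 were all in Insr, the insulin receptor, whose site with the highest mutant fold had 8.16 in the mutant and 3.27 in the wild-type list. Cdk6 (7 sites, 0.40), Dicer1 (4 sites, 0.68) and Ccnd2 (5 sites, −0.48) spread to both sides.

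The remaining lists lay nearer the middle, and the medians below 0.14 turn negative with the ratios divided by the median of all shared peaks, that of the let-7 targets included. Medians were 0.10 for 144 sites of nuclear pore and import genes, 0.18 for 86 sites of motor genes, 0.28 for 91 of histone methylation and chromatin remodeller genes, 0.33 for 75 of PI3K, AKT, mTOR and IGF signalling genes, and 0.47 for 26 of spliceosome core genes. They were 0.04 for 114 sites of cell cycle genes, 0.04 for 9 of aminoacyl-tRNA synthetase genes, 0.00 for 70 of integrin and adhesion genes, −0.04 for 32 of translation factor genes and −0.08 for 34 of translocon and chaperone genes. Within them Kmt2c, a histone H3 methyltransferase, stood out with 12 of its 21 sites 2-fold stronger in the mutant list, and Kpna4, an importin, with 2 of 9 stronger in the wild-type list. Nipbl, with 25 sites, had a median of 0.02, and the exportin Xpo1, with 12, had −0.44.

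Some gene classes had no shared site, where 13.6% of all measured coding genes had at least 1. None of 76 ribosomal protein genes, 16 glycolytic enzyme genes or 13 measured epithelial markers had any, and only 2 of 41 oxidative phosphorylation genes did, Ndufs1 and Sdha. Extracellular matrix genes had 2 of 25, Vcan, a large proteoglycan, with 2 sites and fibronectin, Fn1, with 1. The Fn1 site had 7.04 in the mutant and 3.98 in the wild-type list. The 3 leukocyte and 2 endothelial markers measured had no site. The lists of 16, 13, 3 and 2 genes are short, so a count of 0 says little about them.

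**Figure D3:**
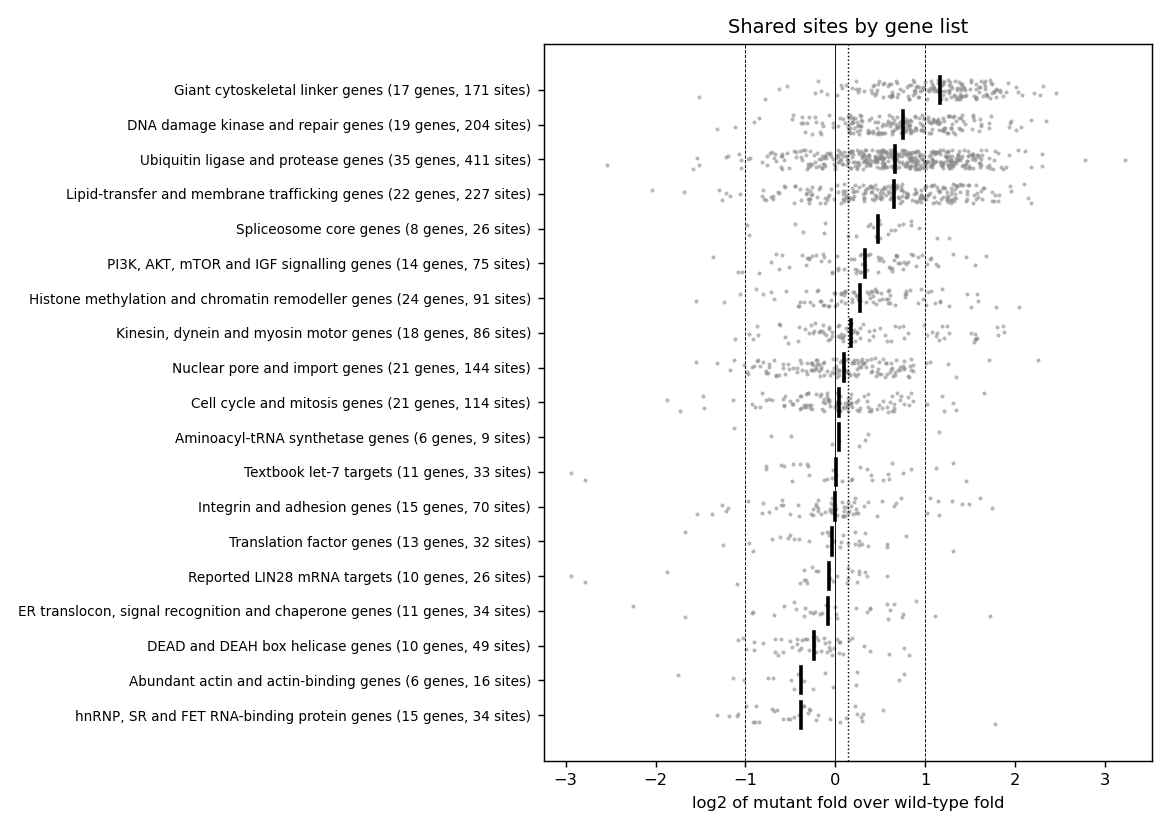
The log2 of the mutant over the wild-type fold (horizontal) for each shared site of the 19 gene lists with at least 9 sites, 1 point a site, with a bar at each list's median, a dotted line at the median of all sites and dashed lines at 2-fold. The giant cytoskeletal linker genes have the highest median, 1.16, and the genes of hnRNP, SR and FET proteins and of actin the lowest, −0.38 each.

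Shared sites were concentrated towards the gene end. Positions are those of the wild-type summit along the gene span of the authors' table, introns included, and the kit used selects polyadenylated RNA. With the span cut into 10 equal bins, the last bin held 2185 sites (37.9%), the first bin 115 (1.99%), and the 5 bins from the middle to the end 76.9%. Within 1000 bases of the gene end lay 692 sites and within 1000 bases of the gene start 51 (0.884%). Dhx36 and Yars were among the genes with a site near the start. The last bin held 25.1% of the mutant-only and 36.8% of the wild-type-only peaks, beside 37.9% of the shared sites. Within 1000 bases of the gene end lay 5.55% of the mutant-only and 18.1% of the wild-type-only peaks, with the share of shared sites (11.995%) between them. Toward the end the mutant excess was smaller, with 9.20% of the sites of the last bin 2-fold stronger in the mutant and 6.45% in the wild-type list, against 15.7% and 6.96% in the first bin.

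The directions also differed by gene span. Genes with a shared site spanned a median of 58.9 kb, against 23.4 kb for all coding genes. With the sites cut into 5 groups of near equal size by gene span, the group with the longest genes (median span 204 kb) had 26.4% of its sites 2-fold stronger in the mutant list and 2.26% in the wild-type list. In the group with the shortest genes (median 27.3 kb) the shares were 5.10% and 8.73%. The groups between, with median spans of 50.7, 78.4 and 112 kb, had mutant shares of 4.84%, 10.5% and 13.8% and wild-type shares of 6.74%, 5.75% and 4.07%. Span and number of sites go together, as in Macf1 with 335 kb and 44 sites or Dst with 400.4 kb and 19, and their parts were not told apart. Width moved as well, since 6.38% of the sites with wild-type peaks over 600 bases wide favoured the mutant at 2-fold and 12.1% the wild type, against 16.8% and 2.99% of those up to 210 bases.

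**Figure D4:**
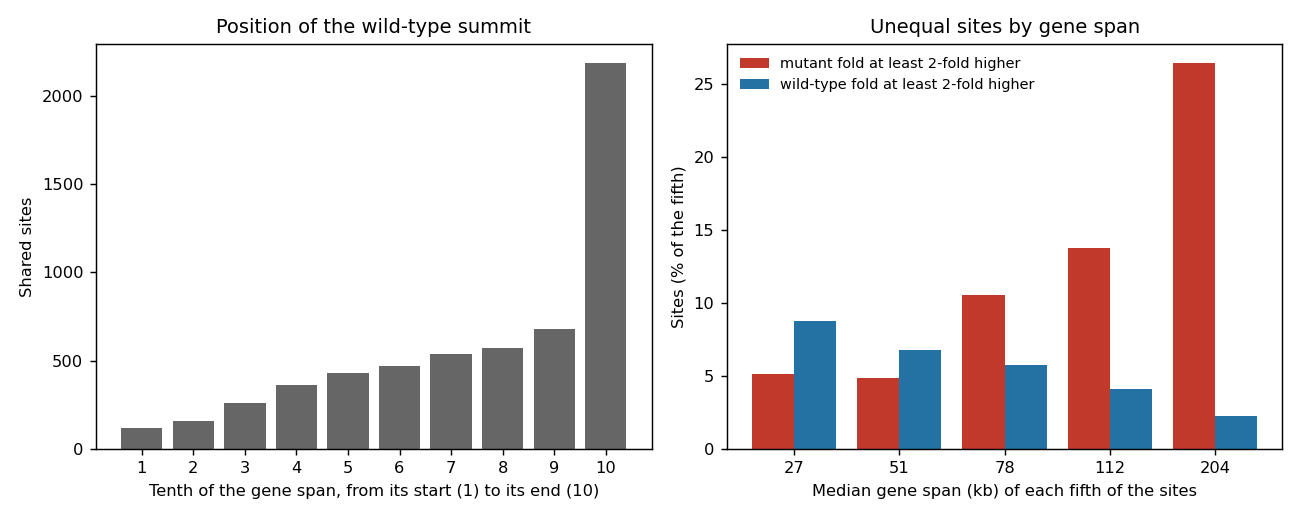
Left, number of shared sites in 10 equal bins of the gene span from the start (1) to the end (10). Right, percent of sites at least 2-fold stronger in the mutant list (first bar) or in the wild-type list (second bar) in 5 groups of sites by gene span, labelled by median span in kb. The last bin holds 2185 sites, and the mutant share reaches 26.4% in the longest genes, where the wild-type share is 2.26%.

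The levels of whole genes were set beside the sites. Of the 1598 genes 1596 were in both tables, and their median log2 ratio of IP over input was 0.65 with the mutant and 0.59 with the wild type, against −0.50 and −0.25 over all coding genes. With the mutant, 414 genes (25.9%) were at least 2-fold above input, where 6.06% of all coding genes were, and 6 were at least 2-fold below, where 33% were. With the wild type the counts were 324 (20.3%), where 6.85% of all coding genes were, and 3, where 18.8% were. The peaks come from the same IP libraries, so a surplus of recovered genes follows from the choice of the sites and carries no further weight. In 141 genes both IPs were 2-fold above input, and in 0 genes was 1 IP 2-fold above and the other 2-fold below. The matching shares of all coding genes were not taken, so these counts are a description only. The inputs had medians of 18.9 FPKM for the mutant and 17.9 FPKM for the wild type over these genes.

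Whole-gene recovery followed the site folds. Over 659 genes with at least 3 sites, the difference of the log2 IP over input ratios, mutant minus wild type, correlated across genes with the median site ratio at Pearson's r = 0.816 and Spearman's rho = 0.808. Over all 1596 genes the values were 0.639 and 0.656. Both measures come from the same 4 libraries, and genes are not independent replicates. Syne2 was at 138 FPKM in the mutant IP and 28.6 FPKM in the mutant input, against 37.0 FPKM in the wild-type IP and 25.7 FPKM in the wild-type input, a recovery of 4.81-fold with the mutant and 1.44-fold with the wild type. Macf1 was recovered 4.65-fold and 1.70-fold, Atm 5.84-fold and 2.39-fold, and Pdik1l 7.89-fold and 2.19-fold. All 4 genes were above input in both IPs, and more so with the mutant.

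Otud4 had the opposite order, with 2.19-fold recovery with the mutant and 3.84-fold with the wild type, and Matr3 had 1.93-fold and 3.41-fold. Hmga2 reached 1.63-fold and 9.39-fold. Papola, a poly(A) polymerase, departed from the trend, with a median site ratio of −0.74 on the log2 scale and a whole-gene difference of 0.01. Dhx29, a helicase of translation initiation, had 1 site 2.12-fold stronger in the wild-type list but 1.89-fold recovery with the mutant and 1.02-fold with the wild type. At 4916 sites the gene's inputs lay within 1.5-fold of each other, and there 12.3% of the sites were 2-fold stronger in the mutant and 5.25% in the wild-type list. At the 80 sites with the mutant input 2-fold lower the shares were 15% and 11.25%, and at the 125 sites with it 2-fold higher 9.6% and 11.2%. The median log2 ratio was 0.19, 0.17, 0.15, 0.06 and −0.15 over the 5 groups of sites, from the lowest to the highest mutant input relative to the wild-type input.

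**Figure D5:**
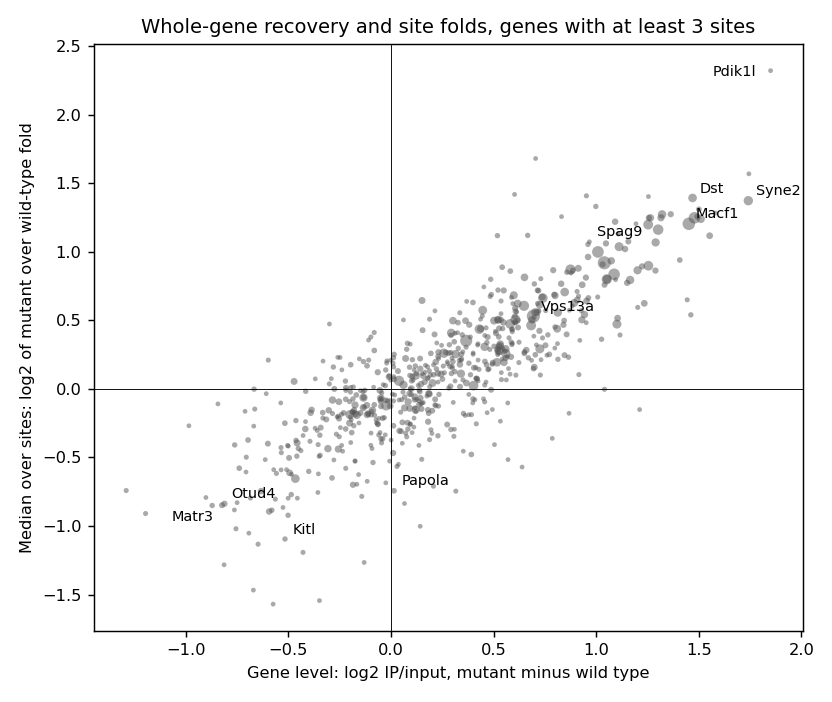
Difference of the log2 IP over input ratio of the whole gene, mutant minus wild type (horizontal), against the median over the gene's sites of the log2 of the mutant over the wild-type fold (vertical), for 659 genes with at least 3 sites. Point size grows with the number of sites. The points run from Matr3, Otud4 and Kitl at the lower left to Syne2, Dst and Pdik1l at the upper right.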

How the data were processed

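Tools named in the submitters' processing notes are HISAT2 (2.1.0), HOMER (4.11.1), bedtools and MACS2 (2.2.7.1), beside the builds mm10 and GRCm38, with their roles unstated. The authors deposited 1 peak list per IP, each strand called apart, with a score, a fold (a ratio at the summit), −log10 p-values and −log10 q-values. Only the fold and −log10 q were used here, and the lowest −log10 q was 1.30 in the mutant and 1.31 in the wild-type list. The sources used here do not say whether the input was the control of the peak calls. The authors' 2 deposited gene tables give levels with no unit named, read as FPKM from the values, a log2 ratio of IP over input, and a p-value and q-value that were not used. A pseudocount of 0.01 added to both levels returned the authors' deposited log2 ratio for every gene, and that scale was used throughout.

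From these, each wild-type peak was paired with the overlapping mutant peak of largest overlap, ties going to the higher fold, and called unequal at 2-fold. The pairing was tested on simulated data of 1000 peaks. Each of these overlapped at most 1 mutant peak, so the choice among several partners was not tested. With 1 library a group no test was made. Python 3.11.15, numpy 2.4.6, pandas 2.3.3 and scipy 1.17.1 were used. Motif shares in 100-base windows around all summits, and exon or coding class, were not computed, since no genome of the build was used here; RefSeq windows and hairpins (GRCm38.p6) stood in.

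The sites, the 27 gene lists and the comparisons were chosen with earlier results of these data known. Named genes, without predicted ones, are the 10 with the highest and the 10 with the lowest ratio, the 10 strongest sites of each list, the 5 genes with most sites and the 3 strongest of each gene list, 87 in all. Other genes were named after their values were seen: genes with at least 5 sites at the ends of the ranking, list members, and genes with readable sequence. Alternatives covered overlap, pairing, scaling, thresholds, pseudocount and centring.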

Additional observations from a re-analysis of the deposited data

How the results depend on the processing

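The number of sites ranged from 4175 to 5766 under other overlap, threshold and gene rules, against 5769. Counts of sites 2-fold stronger in the mutant list were 460 with a reciprocal overlap of 50% and 463 with both −log10 q at least 10, against 699. Counts stronger in the wild-type list were 201 with that −log10 q and 188 with summits at most 50 bases apart, against 318. At 3-fold the counts were 160 and 70. These settings keep fewer sites or ask for a larger ratio by construction. Each table was also centred on its median (−0.61 mutant, −0.29 wild type). Of the genes with a shared site, 1122 were then 2-fold above input with the mutant, at a median log2 ratio of 1.25, and 653 with the wild type. Centring raised the mutant ratios more than the wild-type ratios, and the shares of all coding genes on this scale were not taken. Of the alternative values of the named sites 616 moved by less than 1.5-fold and 5 by more, those of Chsy1 and Esco2. Most named sites overlapped a single mutant peak, so another pairing could not change their ratio. Dividing by the median of all shared peaks shifts every log2 ratio by only 0.14. The count of unmoved values is therefore little check on the ratios. The limits on input, on summit distance and on counting each mutant peak a single time were chosen after seeing the data. No paired analysis was possible because each group had 1 library, and none could be left out. With the depth unknown, no counting error could be given for any fold or level.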

Other observations

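The strongest shared site went with low recovery of its genes. Cmss1, whose site had the highest fold of both lists, was at 2.66 FPKM in the mutant IP and 6.33 FPKM in the mutant input, against 3.66 FPKM in the wild-type IP and 7.95 FPKM in the wild-type input. Filip1l, on the other strand of the same stretch, was at 5.16 and 15.8 FPKM with the mutant and at 13.04 and 24.7 FPKM with the wild type, IP before input. Both genes were thus below input in both IPs, and each had 1 shared site. The median coding gene was also below input, at a log2 ratio of −0.50 with the mutant and −0.25 with the wild type.

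Washc4, Myo9a, Pik3c2a and Ptk2 each had sites 2-fold stronger in either list. In Washc4, of the WASH complex, the log2 ratio ran from −1.15 to 2.33 over 12 sites. In Myo9a, an unconventional myosin, it ran from −1.12 to 1.87 over 22 sites, in Pik3c2a from −1.08 to 1.68 over 25 and in Ptk2, the focal adhesion kinase, from −1.54 to 1.49 over 12. Ncapg, a condensin subunit, had 3 sites whose log2 ratios ran from −1.14 to 1.21.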
